A study of Mus musculus with 14 samples.

Results

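The imprinted genes of distal mouse chromosome 7 were examined as a pair of domains, the H19/Igf2 domain (H19, Igf2 and Ins2) and the Kcnq1ot1 domain (Th, Ascl2, Kcnq1, Kcnq1ot1, Cdkn1c and Phlda2). A peak was taken as a member if it lay on chromosome 7 within 5 kb of the RefSeq body of one of these 9 genes. This rule found 94 of the 74458 peaks in the table, 15 in the H19/Igf2 domain and 79 in the Kcnq1ot1 domain, and all 94 passed the filter on low counts. The genes were chosen by their H3K27me3 counts in these 7 libraries, that is, with the log2 fold changes between the deletions already known. The values below are therefore a description. Calls and counts by p come from tests of all peaks, and for the chosen members they are not independent evidence.

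The study deleted anchors of long-range Polycomb contacts in mouse embryonic stem cells (mESCs) and asked what became of H3K27me3, the trimethylated lysine of histone H3 that Polycomb repressive complex 2 (PRC2) deposits at silent genes. Cut&Tag was used, in which an antibody bound to chromatin recruits a transposase that inserts sequencing adapters beside the mark. There were 3 libraries with a deletion at the Hoxa cluster, 2 with a deletion at Wnt6 and 2 with a deletion at Hmx1, with totals from 6016500 to 36563541 counts. All were G4 mESCs, a 129/Sv × C57BL/6 F1 hybrid line, grown with LIF on CD1 feeder cells and edited by CRISPR-Cas9 to carry homozygous deletions. None of the deleted anchors lies on chromosome 7. The libraries of a deletion were set against all remaining libraries together, because no column of unedited cells was analysed here. The labels name no clones and do not say that replicates were separate cultures, so deletion and clone cannot be told apart and the spread between libraries may be technical. A figure legend of the paper refers to a clone for each deletion, with 3 replicates. Here Wnt6 and Hmx1 had 2 libraries each. Counts sum both parental alleles. In such bulk counts, fewer cells or alleles with the mark and less of the mark on each cannot be told apart.

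Imprinted genes are expressed from one parental allele only, and the choice is set by DNA methylation laid down at control regions in the germ line. On distal chromosome 7, the control region upstream of H19 governs the maternal noncoding RNA H19 and the paternal growth factor gene Igf2. The control region at the promoter of Kcnq1ot1, a paternally expressed antisense RNA within Kcnq1, governs silencing of its neighbours in cis, for which Polycomb complexes are known to be used in the embryo and placenta.

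The labelled cell type was set against marker genes. At the peaks near them, genes active in pluripotent cells held the least of the 3 lists, between 13.9 and 16.6 CPM per kb of peak, where CPM is a count scaled to the size of its library, and Tdgf1 and Dppa5a had no peak. Genes that are silent in stem cells and activated in development, such as Gata4 and Pax6, held 52.5 to 61.3 CPM per kb. Genes of fibroblasts, the cell type of the feeder layer, held 37.7 to 42.4 CPM per kb, and Col3a1 and Lum had no peak. No peak of the 3 lists was called in the Hoxa deletion. The pluripotency list held 16.0 to 16.6 CPM per kb in the Hoxa deletion and 13.9 to 14.9 in the other deletions, without overlap. The feeder list held 39.1 to 40.3 CPM per kb in the Hoxa deletion and 37.7 to 42.4 in the others. The median over all tested peaks was between 7.66 and 8.15 CPM per kb in each library, below all 3 lists.

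Across both domains, H3K27me3 in the Hoxa deletion was far lower at H19. Igf2, a short distance away, and the Kcnq1ot1 domain summed as a whole were at nearly the level of the other deletions. Within that domain, the Kcnq1ot1 peaks stood at 139.9% of the mean of the others and the Ascl2 peaks at 88.4%. Of the 94 member peaks, 4 were called in the Hoxa deletion against the others, where edgeR had to give a change of more than 1 on the log2 scale, in either direction, with the p adjusted by Benjamini-Hochberg under 0.05. Of all tested peaks, 1.55% were called in this comparison. Calls with less H3K27me3 were the 3 peaks at the body, start site and upstream flank of H19 (0.983% of all tested peaks were called lower). The call with more H3K27me3 was 1 weak peak inside Kcnq1ot1 (0.566% of all tested peaks were called higher). No member was called in edgeR or DESeq2 in the Wnt6 deletion (in edgeR, 0.0497% of all tested peaks) or in the Hmx1 deletion (0.0282%), where 5 and 4 members had an unadjusted p under 0.05 in edgeR. The share of all tested peaks with such a p was 5.2% for Wnt6 and 8.96% for Hmx1.

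**Figure D1:**
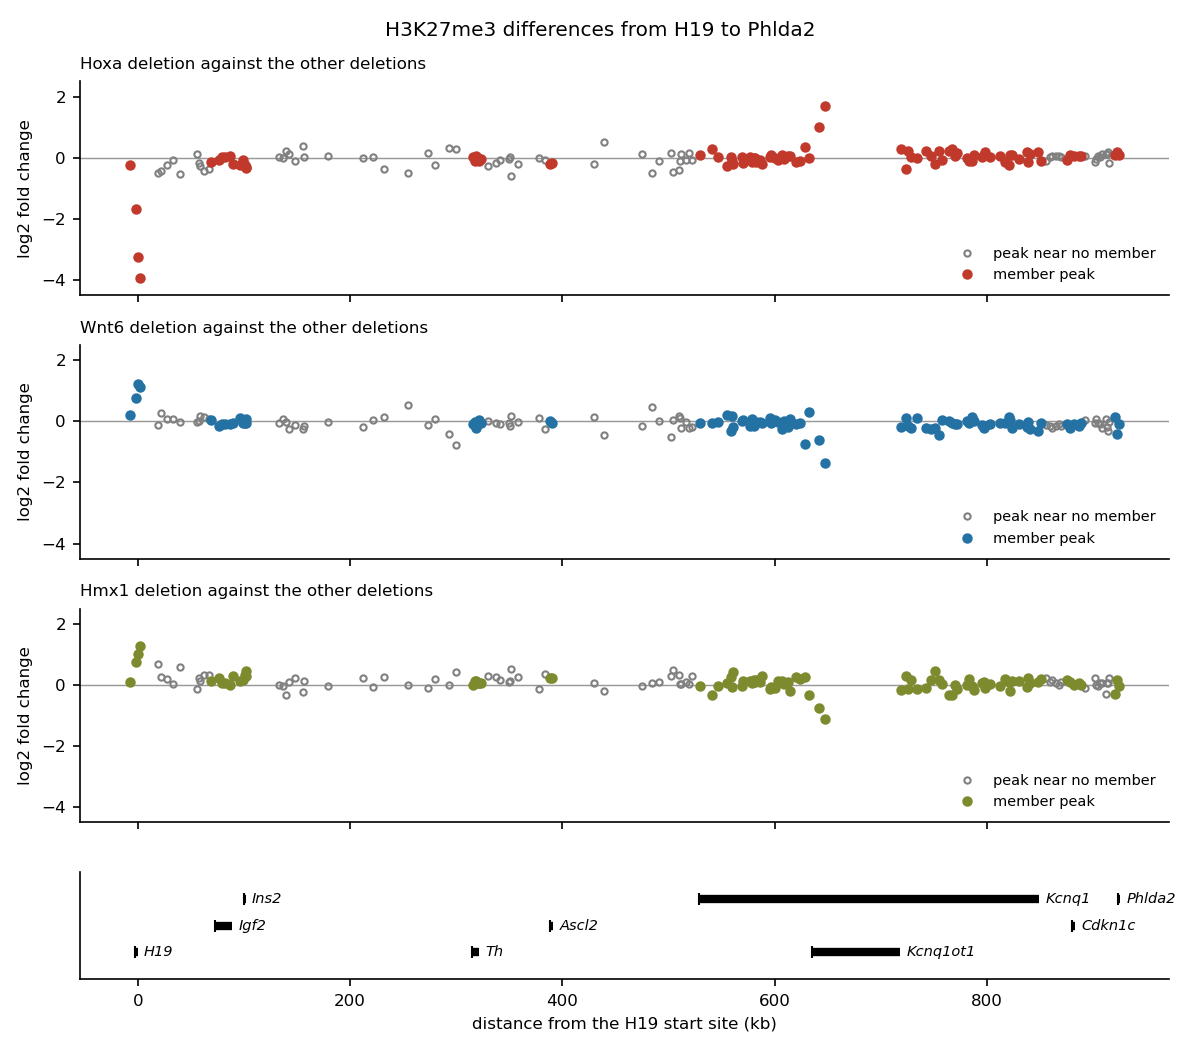
Log2 fold change of H3K27me3 in each deletion against the other deletions (vertical axes) for the 158 tested peaks from the first H19 peak to the last Phlda2 peak, by distance from the H19 start site in kb. Filled points are member peaks, open points are peaks near no member, and bars below are gene bodies. The 3 H19 peaks lie far below 0 in the Hoxa panel and 2 peaks within Kcnq1ot1 lie above, at log2 fold changes of 0.9997 and 1.71.

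H19, the maternally expressed noncoding RNA, spans chr7:142575530-142578146 in GRCm38 (mm10) on the minus strand, so that its start is at the higher coordinate. It had 4 peaks. The strongest, at chr7:142577642-142578872, covers the start site. It held 2.70, 3.13 and 2.90 CPM in the 3 Hoxa libraries, 30.5 and 28.0 in the Wnt6 libraries, and 26.5 and 28.5 in the Hmx1 libraries. Every Hoxa library was below every other library, and the libraries of the other deletions overlapped each other. The log2 fold change was -3.26 ± 0.149 (SE) in the Hoxa deletion. It was -3.29 ± 0.159 against Wnt6 alone and -3.22 ± 0.162 against Hmx1 alone, while Wnt6 against Hmx1 was 0.07 ± 0.146. These values rest on 23, 82 and 45 counts in the Hoxa libraries.

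The upstream peak, at chr7:142580077-142580687, begins 1931 bp before the H19 start, on the side where the imprinting control region lies. Its level was 1.29, 0.802 and 0.580 CPM in the Hoxa libraries, 13.1 and 11.3 in the Wnt6 libraries, and 12.3 and 13.7 in the Hmx1 libraries. This was the largest difference of any member, with a log2 fold change of -3.92 ± 0.222. It rests on 11, 21 and 9 counts in the Hoxa libraries against 73 to 432 in the others. Again no Hoxa library reached the level of any other library.

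The peak in the gene body, at chr7:142576517-142577227, differed less. It held 6.23, 4.97 and 5.09 CPM in the Hoxa libraries, 16.6 and 17.1 in the Wnt6 libraries, and 16.7 and 17.1 in the Hmx1 libraries, a log2 fold change of -1.67 ± 0.147. This peak contains the whole hairpin of Mir675, the microRNA gene that H19 hosts, at chr7:142577064-142577147. Both mature microRNAs are shown, as RNA from RefSeq, because they are cut from the transcribed sequence under this peak, and capitals mark the seed, bases 2 to 8.
mmu-miR-675-5p: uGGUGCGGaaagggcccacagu
mmu-miR-675-3p: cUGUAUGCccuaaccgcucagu
The seeds differ from each other. Cut&Tag counts measure the chromatin here and give no level of either microRNA.

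The last H19 peak, at chr7:142570631-142571032, lies 4498 bp beyond the gene's end. It held 3.41, 5.85 and 4.19 CPM in the Hoxa libraries, 6.59 and 5.12 in the Wnt6 libraries, and 5.58 and 5.27 in the Hmx1 libraries. The groups overlapped, and the log2 fold change was -0.24 ± 0.190. The 3 called peaks therefore span 4.17 kb, and their summed level was 9.23 ± 0.876 CPM in the Hoxa deletion (SD, n = 3), 58.3 ± 2.60 in the Wnt6 deletion (SD, n = 2) and 57.5 ± 2.64 in the Hmx1 deletion (SD, n = 2). The Hoxa libraries were at 16.0% ± 1.51 (SD, n = 3) of the mean of the others, 6.27-fold lower. The higher levels of the pluripotency list in the Hoxa libraries accompany this difference, and their part in it was not tested.

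**Figure D2:**
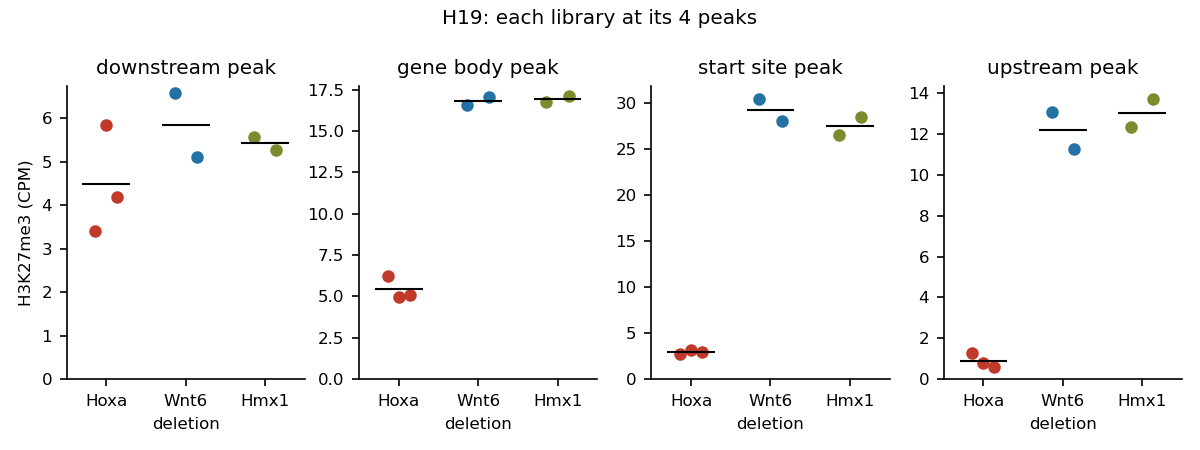
H3K27me3 in CPM (vertical axes, each from 0) at the 4 H19 peaks, with 1 point per library and a bar at the mean of each deletion. The Hoxa libraries sit far below the Wnt6 and Hmx1 libraries at the gene body, start site and upstream peaks, and overlap them at the downstream peak.

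Set against all tested peaks, the start site peak was at the 84.2 to 86.2 percentile of CPM per kb in the Wnt6 and Hmx1 libraries and at the 1.53 to 3.37 percentile in the Hoxa libraries. The upstream peak was at the 82.2 to 85.1 percentile in the former and at the 0.141 to 3.10 percentile in the latter. The gene body peak stayed at the 42.5 to 55.9 percentile in the Hoxa libraries, compared with 85.3 to 86.6 in the others. Per kb, the start and upstream flank of H19 were thus among the weakest tested peaks in the Hoxa libraries, and its body was near the middle of them.

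No called peak lay close to those of H19. In the 932.6 kb from the first H19 peak to the last Phlda2 peak, 64 tested peaks lay near no member. Their log2 fold changes in the Hoxa deletion ran from -0.59 to 0.52. Of these peaks, 0 were called in edgeR or in DESeq2, while 1.55% of all tested peaks were called in edgeR. An unadjusted p under 0.05 in edgeR was found at 7, compared with 20.8% of all tested peaks. At so few peaks, 0 calls lies near the general share. The interval begins at an H19 peak, so it leaves out the side of lower coordinates. On that side, a peak near Nctc1, at chr7:142562951-142563335, had a log2 fold change of -0.48 ± 0.190 and was not called. Every Hoxa library was below every other library there, as at 9.19% of all tested peaks. Towards lower coordinates, the nearest called peak was 4185 kb from the H19 peaks. Towards higher coordinates it was the peak inside Kcnq1ot1, 644.9 kb away. On the whole of chromosome 7, 44 calls were made in the Hoxa deletion among 5017 tested peaks (0.877%), 18 of them lower.

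Igf2, the paternally expressed growth factor gene, spans chr7:142650768-142666816 and had 6 peaks with summed levels from 443.6 to 509.8 CPM over the 7 libraries. The Hoxa libraries held 99.1% of the mean of the others. The strongest peak, at chr7:142658740-142661174, had 169.0, 164.2 and 169.0 CPM in the Hoxa libraries, 165.6 and 152.2 in the Wnt6 libraries, and 173.1 and 168.2 in the Hmx1 libraries. The Hoxa libraries overlapped those of each other deletion, while both Wnt6 libraries lay below both Hmx1 libraries. The log2 fold change in the Hoxa deletion was 0.02 ± 0.0745. Over all 6 Igf2 peaks it ran from -0.21 to 0.06. Of 4 Igf2 promoter windows in the RefSeq table, the one beneath this strongest peak is shown because its CG content stands out, from 250 bases before a start site up to that site on the minus strand, with each CG dinucleotide in capitals.
Igf2, chr7:142658805-142659054: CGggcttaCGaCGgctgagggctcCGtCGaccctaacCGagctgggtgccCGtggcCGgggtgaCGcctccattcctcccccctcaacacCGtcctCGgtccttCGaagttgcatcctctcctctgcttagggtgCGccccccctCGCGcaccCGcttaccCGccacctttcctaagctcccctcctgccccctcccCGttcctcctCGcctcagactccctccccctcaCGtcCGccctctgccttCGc
This window holds 22 CG dinucleotides, and 14.8% of the 32851 RefSeq promoter windows of the same length hold as many or more. The motif searched was CG, which reads the same on both strands.

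Ins2, an insulin gene beside Igf2, carried less of the mark than Igf2. Its 5 peaks summed to 26.1, 27.3 and 26.8 CPM in the Hoxa libraries, 28.5 and 30.3 in the Wnt6 libraries, and 30.8 and 34.5 in the Hmx1 libraries. The Hoxa libraries were lowest and stood at 86.2% of the mean of the others, with log2 fold changes of the single peaks from -0.33 to -0.08 and no call. The strongest Ins2 peak, at chr7:142674306-142675123, had a log2 fold change of -0.22 ± 0.152, which was -0.12 without Hmx1 replicate 2.

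Th, which encodes the rate-limiting enzyme of catecholamine synthesis, lies between the H19/Igf2 and Kcnq1ot1 clusters. Its 6 peaks summed to 95.8 to 108.3 CPM, with the Hoxa libraries at 99.0% of the others, and the strongest, at chr7:142892875-142894435, had a log2 fold change of 0.04 ± 0.107. Ascl2, a basic helix-loop-helix factor needed in the trophoblast, was among the most strongly marked members. Its strongest peak, at chr7:142967274-142969845, held 223.8, 206.4 and 230.3 CPM in the Hoxa libraries, 249.5 and 215.3 in the Wnt6 libraries, and 277.2 and 253.6 in the Hmx1 libraries. The Hmx1 libraries were the highest and the Hoxa and Wnt6 libraries overlapped. The log2 fold change was -0.18 ± 0.0752 in the Hoxa deletion and 0.24 ± 0.0761 in the Hmx1 deletion, neither called. The 2 Ascl2 peaks together stood at 88.4% of the mean of the others in the Hoxa deletion. The Ascl2 promoter window lies wholly under this peak and is shown for comparison with the promoters of Igf2 and Kcnq1ot1, with the same marking.
Ascl2, chr7:142969265-142969514: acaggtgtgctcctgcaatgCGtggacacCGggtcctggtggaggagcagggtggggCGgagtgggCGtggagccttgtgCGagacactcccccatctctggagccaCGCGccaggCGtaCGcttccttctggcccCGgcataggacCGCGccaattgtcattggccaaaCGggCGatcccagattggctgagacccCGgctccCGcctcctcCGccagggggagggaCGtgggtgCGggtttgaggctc
It holds 19 CG dinucleotides, a number reached by 19.7% of all windows.

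Kcnq1, the gene of a voltage-gated potassium channel subunit, spans 320.2 kb and had 63 peaks. Their summed level in the Hoxa libraries was 102.9% of the mean of the others. The strongest, at chr7:143106366-143108613 over the start of the gene, held 170.9, 153.2 and 160.5 CPM in the Hoxa libraries, 162.2 and 142.8 in the Wnt6 libraries, and 149.3 and 156.0 in the Hmx1 libraries. The groups overlapped, and the log2 fold change was 0.08 ± 0.0762.

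Kcnq1ot1, the antisense RNA that starts inside Kcnq1, spans chr7:143213111-143296547 and had 4 peaks, all of which are also Kcnq1 peaks. Without strand, the signal cannot be divided between both genes. The mark was sparse along the transcript. After the peak over its promoter, no peak was listed for 70.3 kb, whereas the next longest gap within Kcnq1 was 9.85 kb and the median gap 3.20 kb. There were 3.60 peaks per 100 kb in the Kcnq1ot1 body and 24.9 in the rest of Kcnq1. Over the whole table, 88.4% of gaps between neighbouring peaks were shorter than 70.3 kb. The absence of a listed peak does not give a level, since counts between peaks were not analysed here.

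The peak over the Kcnq1ot1 promoter, at chr7:143296194-143296949, held 9.52, 9.44 and 12.1 CPM in the Hoxa libraries, 8.75 and 8.28 in the Wnt6 libraries, and 7.61 and 9.05 in the Hmx1 libraries. The Hoxa libraries were the highest by a narrow margin, and the log2 fold change was 0.29 ± 0.148. Without Hoxa replicate 3 it was 0.16. The promoter window, on the minus strand, is shown because it lies under this peak and belongs to the imprinting control region of the domain.
Kcnq1ot1, chr7:143296548-143296797: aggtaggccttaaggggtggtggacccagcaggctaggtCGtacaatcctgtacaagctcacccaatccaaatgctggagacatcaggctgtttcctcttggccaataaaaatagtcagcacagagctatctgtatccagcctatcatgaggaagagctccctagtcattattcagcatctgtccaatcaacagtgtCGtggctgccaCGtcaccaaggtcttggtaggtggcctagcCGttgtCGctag
It holds 5 CG dinucleotides in contrast to 22 and 19 in the Igf2 and Ascl2 windows, and 55.6% of all windows hold as many or more. The window covers only the 250 bases before the start site, so this count does not describe the whole control region.

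The 2 other peaks within the Kcnq1ot1 body were weak and higher in the Hoxa deletion. The one at chr7:143225591-143225855 was called, with 1.53, 1.299 and 2.06 CPM in the Hoxa libraries, 0.309 and 0.523 in the Wnt6 libraries, and 0.338 and 0.590 in the Hmx1 libraries, and a log2 fold change of 1.71 ± 0.418. It rests on 13, 34 and 32 counts in the Hoxa libraries, 3 and 20 in the Wnt6 libraries, and 2 and 15 in the Hmx1 libraries. The other, at chr7:143219769-143220281, held 2.82, 3.21 and 3.16 CPM in the Hoxa libraries, 1.23 and 1.80 in the Wnt6 libraries, and 1.35 and 1.495 in the Hmx1 libraries. No library of the Hoxa deletion overlapped the others at either peak. The second had a log2 fold change of 0.9997 ± 0.266, just under the limit for a call, so that these neighbours fell on either side of the threshold. Without Hoxa replicate 1 (1.04) or Wnt6 replicate 2 (1.15) it was called. The fourth peak, at chr7:143210652-143210950, is 2161 bp beyond the gene's end and its groups overlapped, with a log2 fold change of 0.01 ± 0.383. Over the 4 peaks the sums were 15.2, 15.2 and 18.4 CPM in the Hoxa libraries, 12.97 and 11.2 in the Wnt6 libraries, and 9.97 and 12.3 in the Hmx1 libraries. The Hoxa libraries were the highest, at 139.9% of the mean of the others.

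**Figure D3:**
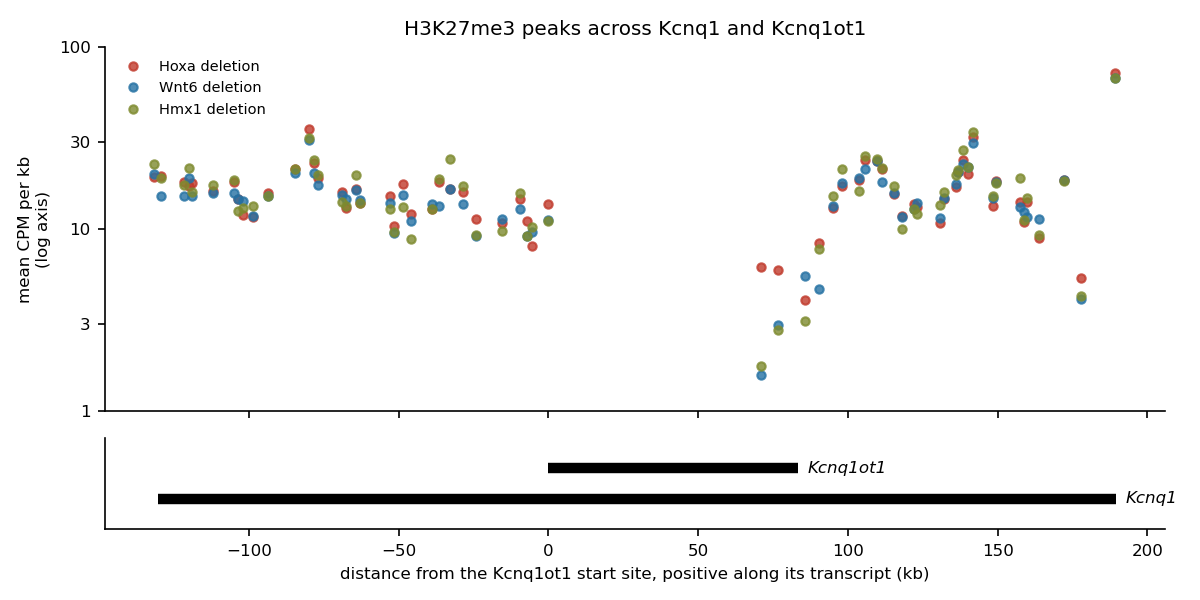
Mean H3K27me3 per deletion in CPM per kb (vertical axis, log scale) at each peak of Kcnq1 and Kcnq1ot1, by distance from the Kcnq1ot1 start site in kb, positive along the Kcnq1ot1 transcript, with the gene bodies as bars. No peak is listed for 70.3 kb after the start, and the Hoxa points stand above the others at the 2 weak peaks that follow.

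Cdkn1c, which encodes a cyclin-dependent kinase inhibitor, and Phlda2, which encodes a small protein that restrains placental growth, are expressed from the maternal allele at the far end of the domain. The strongest Cdkn1c peak, at chr7:143458940-143461648, had the highest mean CPM of any member peak, with 297.7, 263.9 and 284.0 CPM in the Hoxa libraries, 278.8 and 254.3 in the Wnt6 libraries, and 267.9 and 285.4 in the Hmx1 libraries. The groups overlapped and the log2 fold change was 0.05 ± 0.0688. All 5 Cdkn1c peaks together stood at 103.9% of the others in the Hoxa deletion. The 3 Phlda2 peaks stood at 107.3%, and the strongest, at chr7:143501678-143503232, had a log2 fold change of 0.08 ± 0.0967.

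Per kb of peak, the members differed far more among themselves than between deletions. Ascl2 (76.8 to 102.0 CPM per kb over the 7 libraries) and Cdkn1c (68.1 to 78.7) were highest and overlapped. Igf2 followed at 46.7 to 53.7 CPM per kb and overlapped neither neighbour in this order. Phlda2 (23.7 to 27.7) and Th (22.5 to 25.4) overlapped. H19 came next in the Wnt6 and Hmx1 libraries, at 20.7 to 22.6 CPM per kb, reaching into the range of Th, and Kcnq1 lay just below at 18.6 to 20.1. Ins2 held 11.2 to 14.8 CPM per kb and Kcnq1ot1 5.45 to 10.04. In the Hoxa libraries H19 held 4.32 to 5.00 CPM per kb, below every other member. Only Kcnq1ot1 in the Wnt6 and Hmx1 libraries and H19 in the Hoxa libraries lay below the median over all tested peaks given above.

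**Figure D4:**
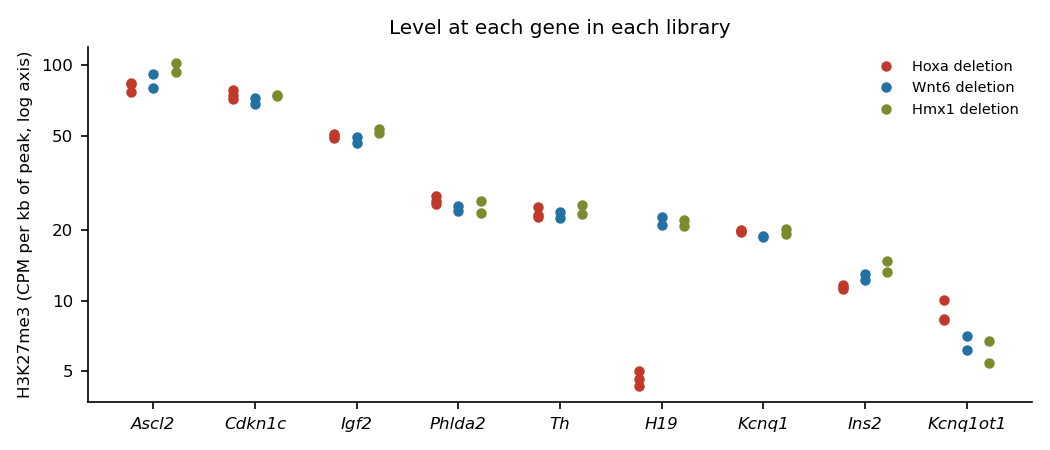
H3K27me3 in CPM per kb of peak (vertical axis, log scale) at each of the 9 genes, 1 point per library, coloured by deletion and ordered by the median of the Wnt6 and Hmx1 libraries. Only H19 changes its place in the order in the Hoxa libraries, where it holds 4.32 to 5.00 in place of the 20.7 to 22.6 of the others.

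The 2 domains were then set against each other. The median log2 fold change over the 15 peaks of the H19/Igf2 domain was -0.22 in the Hoxa deletion, -0.05 in the Wnt6 deletion and 0.23 in the Hmx1 deletion. Over the 79 peaks of the Kcnq1ot1 domain it was 0.03, -0.06 and 0.07. The median over all tested peaks was between -0.01 and 0.00 in each comparison. In the Kcnq1ot1 domain, 77 of 79 peaks lay within 0.5 of 0 on the log2 scale in the Hoxa deletion, as did 12 of 15 in the H19/Igf2 domain, where the exceptions were the 3 called H19 peaks. Every Hoxa library lay below every other library at 5 of the 94 members, while 9.19% of all tested peaks showed this. At 6 members every Hoxa library lay above all others, compared with 9.09% of all tested peaks.

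Within each library, the log2 ratio of the summed CPM of the H19/Igf2 domain to that of the Kcnq1ot1 domain does not depend on scaling between libraries. It was -1.69 ± 0.0041 in the Hoxa deletion (SD, n = 3), -1.54 ± 0.0149 in the Wnt6 deletion (SD, n = 2) and -1.52 ± 0.0233 in the Hmx1 deletion (SD, n = 2). The Hoxa libraries lay below all others. The called H19 peaks made up 1.67% to 1.96% of the summed CPM of the domain in the Hoxa libraries and 9.54% to 10.6% in the others. Without these 3 peaks, an alternative chosen after their values were seen, the difference between the Hoxa deletion and the others was -0.04, compared with -0.17 with them. Every Hoxa library still lay below every other, but by a narrow margin. The highest Hoxa library then stood at -1.718 and Wnt6 replicate 2 at -1.712. The other 12 peaks of the domain had log2 fold changes from -0.33 to 0.06 in the Hoxa deletion.

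**Figure D5:**
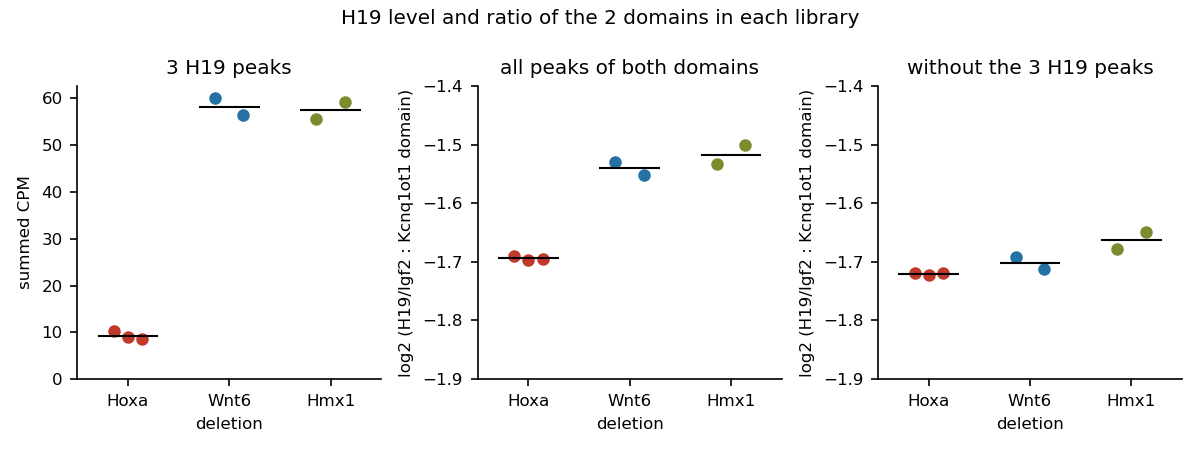
Left, summed CPM of the 3 called H19 peaks, and centre and right, log2 ratio of the summed CPM of the H19/Igf2 domain to that of the Kcnq1ot1 domain with and without these peaks, 1 point per library and a bar at each deletion's mean. The ratio of the Hoxa libraries is -1.69 on average with the H19 peaks, below the other libraries. Without them the difference is -0.04, and the highest Hoxa library (-1.718) lies just below Wnt6 replicate 2 (-1.712).

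In the Wnt6 and Hmx1 comparisons, the largest differences in the H19/Igf2 domain were again at H19, because the Hoxa libraries form part of the comparison group. They were 1.23 at the start site peak for Wnt6 and 1.26 at the upstream peak for Hmx1, neither called. Without Hmx1 replicate 2 the former was 1.997, and without Wnt6 replicate 2 the latter was 1.94. With a term for each genotype, 2 H19 peaks were called in each of these deletions, with values of up to 1.86 for Wnt6 and 2.06 for Hmx1. In the Kcnq1ot1 domain, the largest difference among peaks of at least 2 CPM for Wnt6 was -0.73, at chr7:143206059-143206402 within Kcnq1. It was -1.21 without Wnt6 replicate 2 and -0.52 without Wnt6 replicate 1. For Hmx1 it was -0.76, at the weak Kcnq1ot1 peak chr7:143219769-143220281, where the Hoxa libraries were high. The called Kcnq1ot1 peak, which lies under 2 CPM, stood at -1.38 for Wnt6 and -1.10 for Hmx1. Between Wnt6 and Hmx1 directly, no member was called in edgeR (0.0887% of all tested peaks were) and 5 had an unadjusted p under 0.05, compared with 5.66% of all tested peaks.

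Neighbouring genes of both clusters gave the surroundings. Of 79 peaks within 5 kb of genes such as Lsp1, Tnnt3, Cd81 and Nap1l4 that were not members, 0 were called in any of the 3 deletions in edgeR or in DESeq2. At an unadjusted p under 0.05 there were 9 in the Hoxa deletion, 2 in the Wnt6 deletion and 1 in the Hmx1 deletion. For Hoxa, 20.8% of all tested peaks had such a p, as had 7 of the 94 members. The share of all tested peaks was 5.2% for Wnt6 and 8.96% for Hmx1. Calls in edgeR were made at 1.55%, 0.0497% and 0.0282% of all tested peaks in the Hoxa, Wnt6 and Hmx1 deletions.

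Imprinted genes elsewhere in the genome were counted for comparison. Of 38 such genes, 34 had a peak, and 7 of their 153 peaks (4.58%) were called in the Hoxa deletion, 6 lower and 1 higher, beside 1.55% of all tested peaks. The lower peaks were at Mest, a paternally expressed gene of the hydrolase family, and at Peg13, a noncoding RNA that lies within Trappc9 and shares its peaks. The higher one was at Nap1l5. Of the 7 calls, 4 were at Mest and 1 at Nap1l5. Both genes lie on chromosome 6, which also carries the deleted Hoxa cluster, whereas Peg13 lies on chromosome 15. The share called among all chromosome 6 peaks is not given here, and a link to that chromosome was not tested. In the Hoxa deletion DESeq2 called 6 of the 153 peaks. In edgeR 28 had an unadjusted p under 0.05 there, compared with 20.8% of all tested peaks. None was called in edgeR or DESeq2 in the Wnt6 deletion, where 6 had such a p in edgeR (5.2% of all tested peaks). In the Hmx1 deletion 1 was called in edgeR (0.0282% of all tested peaks), and 8 had such a p (8.96%). The called one was the Nap1l5 peak, with a log2 fold change of -6.13, so that the Hmx1 libraries lower the comparison level for Hoxa at this peak.

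The genes most like H19 over the 7 libraries were sought by Pearson's r of log2 summed CPM among genes off chromosome 7 with at least 50% of the range of H19, a profile chosen after the H19 values were seen. Of 465 genes, leaving out those within 100 kb of the Hoxa cluster, the 5 highest were Ptger1, Prag1, Mest, Mir335 and Rnf128, with r between 0.993 and 0.995. With the cluster included, the deleted Hoxa genes themselves came first. Mest held 5.99, 5.85 and 4.58 CPM in the Hoxa libraries, 46.3 and 46.9 in the Wnt6 libraries, and 58.3 and 57.8 in the Hmx1 libraries, and Mir335 lies within it. The libraries fall into a low and a high group at H19, so any gene that separates the Hoxa deletion from the others has a high r. The sums of the whole domains varied little, over a range of 0.26 on the log2 scale for H19/Igf2 and 0.14 for Kcnq1ot1. The genes most like them were Cav2, Sgo2b, Spata24, Gm4895 and Gm35982 for the former, and Otx1, Gm32517, Cdkn2a, Grin2a and Zbtb37 for the latter. Otx1 and Gm32517 had identical values in all 7 libraries, so they are not separate matches. At such ranges these orders follow small differences between libraries.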

How the data were processed

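H3K27me3 was measured by Cut&Tag in 7 libraries, and the 7 libraries made with IgG were not used here. Raw counts over one peak list were deposited by the authors, with no normalization. The submitters' processing notes name Trimmomatic, Bowtie2, SAMtools, Picard, MACS2, deepTools and mm10, but whether duplicates were removed and on which libraries peaks were called is not given in the sources used here. If peaks were called on some of the libraries, sites strong in those are favoured. Totals ran from 6016500 to 36563541 counts, and peaks with few counts are measured less precisely. Groups were taken from the sample titles.

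Analyses used R 4.3.3 with edgeR 4.0.16, limma 3.58.1, GenomicRanges 1.54.1 and DESeq2 1.42.0, and Python 3.11.15 with matplotlib 3.10.9. The filterByExpr filter, applied by genotype, left 74441 peaks, and TMM gave the scaling factors, which CPM values also use. The quasi-likelihood test of edgeR was run on all tested peaks for a deletion against the remaining libraries. Gene bodies and promoters were from RefSeq tables of GRCm38.p6, and 5 of the 9 genes had a promoter window there. Peak positions are as deposited. The procedure was tested on simulated data. The members, lists and tests were chosen with earlier results of these data known. Named peaks were the strongest of each member by mean CPM, the largest difference of each domain and deletion among peaks of at least 2 CPM, and, for each domain, the 5 genes with the most similar profile. The other H19 and Kcnq1ot1 peaks were described after their values were seen. Alternatives were DESeq2, scaling by RLE or by totals only, no filter or a stricter one (mean count 20 or more), a term per genotype, comparison with 1 other deletion at a time, a block by replicate number, downsampling to the smallest library, leaving out each library, windows of 0 and 20 kb, no minimum fold change, Th moved to the H19/Igf2 domain, the chromosome 7 median subtracted, and the mean of log2 CPM over peaks.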

Additional observations from a re-analysis of the deposited data

How the results depend on the processing

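The 3 H19 peaks were called in the Hoxa deletion under DESeq2, under each scaling, filter, comparison group and depth tried, and without each library in turn, with 3 to 5 members called in all. A mean count of at least 20 removed the called Kcnq1ot1 peak. Against Hmx1 alone this peak was not called, at 1.61 ± 0.555, while its neighbour at chr7:143219769-143220281 was, at 1.08 ± 0.353. Same-numbered libraries of different deletions deviated together with r of -0.04 to 0.08, and differently numbered ones with r of -0.11 to 0.11. With 2 libraries in a deletion these r mirror each other, so they cannot tell whether replicate numbers pair the libraries. Replicate 1 had the lowest total counts in each deletion. With the replicate block 5 members were called in the Hoxa deletion and the H19/Igf2 domain median in the Wnt6 deletion was 0.0104. Members called in the Wnt6 and Hmx1 deletions were 2 each with a term for each genotype and 4 each against Hoxa alone.

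The H19/Igf2 domain median in the Hoxa deletion was -0.11 against Wnt6 alone, -0.16 in a window of 0 kb and -0.10 with Th in this domain. In the Wnt6 deletion it was 0.11 against Hoxa alone, -0.12 against Hmx1 alone, 0.00792 after downsampling and 0.0439 in a window of 20 kb. In the Hmx1 deletion it was 0.20 with library totals alone, 0.12 against Wnt6 alone, 0.14 with Th in this domain and 0.14 without the called H19 peaks, an alternative chosen after seeing the data. The Kcnq1ot1 domain median in the Hoxa deletion was -0.0286 against Hmx1 alone and 0.00268 after downsampling. In the Wnt6 deletion it was -0.0351 with library totals alone, -0.0347 against Hoxa alone and -0.10 against Hmx1 alone.

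The difference in the domain log2 ratio in the Hoxa deletion was -0.76 with the mean of log2 CPM over peaks, -0.14 after downsampling, -0.11 and -0.17 in windows of 0 and 20 kb, -0.15 with Th in the H19/Igf2 domain and -0.0376 without the called H19 peaks. In the Wnt6 deletion it was 0.43 with the mean of log2 CPM over peaks, 0.0440 after downsampling, 0.0568 in a window of 0 kb and -0.00464 without the called H19 peaks. In the Hmx1 deletion the mean of log2 CPM gave 0.48, a window of 0 kb gave 0.0798, and leaving out the called H19 peaks gave 0.0497. The mean of log2 CPM gives the H19 peaks the weight of any other peak. The cause of these shifts was not tested. Leaving out each library in turn gave differences in the domain log2 ratio of -0.17 to -0.16 for Hoxa, 0.0641 to 0.11 for Wnt6 and 0.10 to 0.14 for Hmx1. The Kcnq1ot1 domain median ran from -0.00564 to 0.0587 for Hoxa, from -0.0890 to -0.0496 for Wnt6 and from -0.0243 to 0.0796 for Hmx1. The H19/Igf2 domain median ran from -0.25 to -0.18, from -0.0481 to 0.0381 and from 0.21 to 0.25, and 4 or 5 members were called in the Hoxa deletion. Among the named peaks, values without 1 library stand beside each value that moved by over 1.5 times, except for the strongest peaks of Igf2, Th, Kcnq1, Cdkn1c and Phlda2, which lie within 0.1 of 0 and ranged from -0.0244 to 0.12. Depth limits the weak peaks most.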
